A study of Mus musculus with 14 samples.

Results

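The heart library is the small RNA library made from heart tissue of mice of the inbred strain C57BL/6J, and it is 1 of 14 tissue libraries in the series. It was chosen by its tissue label, and every miRNA name in it was set against the other 13 libraries, each of 1 tissue: oesophagus, stomach, colon, small intestine, lung, brain, cerebellum, kidney, liver, spleen, pancreas, uterus and ovary. Each library was built from total RNA pooled over animals, and the labels give both 5 and 10 mice as their number. No treatment or genetic change is named, and the age and sex of the mice were not given in the sources used here. With 1 library per tissue there is no replicate error and no test between tissues, so the values describe these libraries and were compared by rules of size. Whether a tissue with less of a miRNA had fewer cells of one type or less miRNA per cell cannot be told apart in such bulk samples.

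The libraries labelled colon and uterus went against their labels for intestinal miRNAs. miR-215, a miRNA of intestinal epithelium, stood at 118373 reads per 1000000 (RPM) in the library labelled uterus, second to small intestine with 365682 RPM. In the library labelled colon it stood at 347 RPM, below the median of 538 RPM. Both are therefore called by their labels, and counts are also given without them. The heart library held 6935910 reads, of which miR-143 took 1485372 or 21.4% (95% exact binomial interval 21.4–21.4%), against 4.01% to 98.7% in the other libraries. miR-143 was left out of every total, which left 5450538 reads in heart and 86545 (the library labelled colon) to 6502821 (kidney) elsewhere. RPM below means reads per 1000000 of this remainder, so 1 heart read is worth 0.183 RPM and a count of 0 in heart allows up to 0.550 RPM (3 reads). Intervals are at 95% and cover counting error only, since the reads carry no molecular identifiers.

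miRNAs are short RNAs that pair with messenger RNAs mainly through their seed, bases 2 to 8 from the 5′ end, and lower their translation or stability. Heart muscle is known for a set of striated muscle miRNAs. miR-1 and miR-133a are made from shared transcripts in cardiac and skeletal muscle, miR-206 and miR-133b from a shared transcript known mainly from skeletal muscle, and miR-499, miR-208a and miR-208b from introns of myosin heavy chain genes. Heart tissue also holds endothelium, fibroblasts, smooth muscle of its vessels and blood, each with miRNAs of its own.

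The mature sequences below show how some of the muscle miRNAs relate to each other, and which families stood low in heart. They are from RefSeq (GRCm38.p6), in which 21 of the 23 names looked up were found, are written 5′ to 3′ and have the seed in capitals. The first group holds the muscle names other than miR-1 and miR-133a, whose sequences were not looked up. Its top 3 names come from myosin introns.
miR-208a-3p: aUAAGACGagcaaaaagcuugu
miR-208b: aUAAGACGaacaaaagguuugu
miR-499: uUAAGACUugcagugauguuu
miR-133b: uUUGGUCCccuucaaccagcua
miR-206: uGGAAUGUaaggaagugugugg
The next group holds miR-30 members, which stood high in heart relative to most names, and let-7 members, whose make-up differed from most tissues.
miR-30a: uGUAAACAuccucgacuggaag
miR-30e: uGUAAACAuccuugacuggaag
let-7a: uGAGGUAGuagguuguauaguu
let-7c: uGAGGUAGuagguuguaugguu
let-7f: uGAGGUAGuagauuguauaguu
The last group holds epithelial miRNAs that were scarce in heart.
miR-141: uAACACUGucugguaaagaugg
miR-200a: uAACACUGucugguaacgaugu
miR-200b: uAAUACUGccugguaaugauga
miR-182: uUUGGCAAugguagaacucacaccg

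In GRCm38.p6, miR-208a-3p lies at chr14:54949072-54949093 on the minus strand, in an intron of Myh6, which encodes the alpha myosin heavy chain of the adult mouse heart. miR-208b lies at chr14:54975710-54975731 on the minus strand, in an intron of Myh7, the gene of the beta chain. miR-499 lies at chr2:155622893-155622913 on the plus strand, in an intron of Myh7b, a further myosin gene. miR-208a-3p and miR-208b are identical at 19 of 22 positions and in the whole seed, and miR-499 shares 6 of the 7 seed bases with both. miR-206 (chr1:20679055-20679076) and miR-133b (chr1:20682834-20682855) are neighbours on the plus strand, and both overlap an exon of the long non-coding RNA Gm28653 in GENCODE M21. let-7c and let-7f each differ from let-7a at 1 of 22 positions, as miR-30a and miR-30e do from each other. The counting of reads that match several such names was not given in the sources used here, and values of near-identical names are uncertain.

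The heart library was made up mostly of a pair of names. miR-378, a miRNA encoded in an intron of the metabolic coactivator gene Ppargc1b, stood at 453310 RPM or 45.3%, and miR-1 at 405138 RPM or 40.5%. Together they held 85.8% of the reads other than miR-143, the largest share of the top pair of names in the 14 libraries. In the others that share ran from 26.9% in lung to 75.1% in pancreas. The following names in heart were let-7c (26317 RPM), let-7f (14499 RPM), let-7a (13208 RPM) and miR-30a (10954 RPM), and 42 names made up 99% of the reads against a median of 90 elsewhere. Of 1046 names in the table, 478 had a heart read, 169 reached 10 RPM, 78 reached 100 RPM and 26 reached 1000 RPM. The number at 10 RPM was 11th from the top among 14, with 112 in pancreas and 328 in brain as the extremes. This rank depends on depth, since 1 read is worth 11.6 RPM in the library labelled colon. All 283 names with a read there reached 10 RPM. Of the 1046 names, 568 had no heart read.

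Most names lay below the other tissues in heart. Across 236 names at 10 RPM or more in heart or in the median of the others, the median log2 ratio of heart to that median, with 1 RPM added to both, was -1.42. This is 2.68-fold below, and 80.5% of the names lay below. The shift depended on the total used. It was -0.46 with miR-143 kept in the totals, 0.17 with median-of-ratios size factors, 0.26 with the 5 most abundant names of each library left out, and 0.92 with miR-143, miR-378 and miR-1 left out. Values relative to the shift are therefore given beside the RPM, as a difference on the log2 scale with the range over these 5 ways of scaling.

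By the rule of size, a name was called higher or lower in heart where it differed at least 4-fold from the median of the other 13 libraries, with 1 RPM added to both and at least 100 RPM in the higher of the 2 values. Of 115 names at that level, 8 were higher (6.96%) and 37 lower (32.2%), and 94 lay below the median. With miR-143, miR-378 and miR-1 left out of the totals the split turned, since 48 of 160 names were higher (30%) and 2 lower (1.25%). It was 17 to 8 with median-of-ratios factors and 31 to 10 without the 5 most abundant names. The 8 names were called higher under all 3 of these. Without the libraries labelled colon and uterus, 8 were higher and 35 lower. With the total used here, each other library gave between 6 (liver) and 82 (brain) higher names by this rule, with a median of 32. Heart thus had few with this total, and the other libraries were not counted under other totals.

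**Figure D1:**
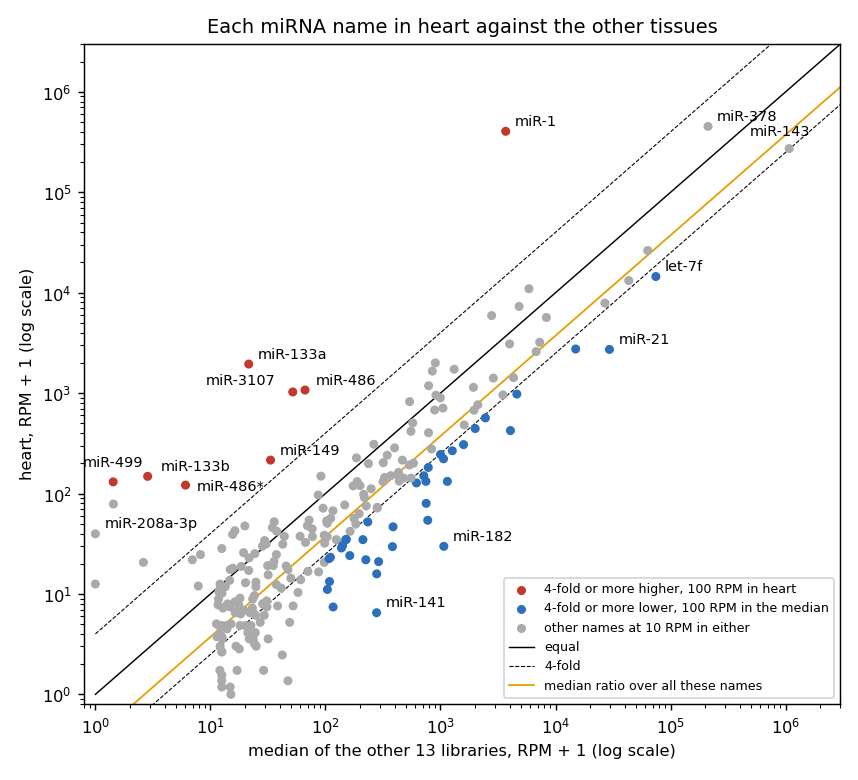
Each point is 1 miRNA name at 10 RPM or more in heart or in the median of the other 13 libraries; the horizontal axis is that median and the vertical axis the heart library, both in RPM + 1 on log scales, with miR-143 left out of the total. Red marks the 8 higher names and blue the 37 lower names, the dashed lines mark 4-fold, and the orange line is the median ratio over all these names, 2.68-fold below equality; with totals also without miR-378 and miR-1 that line lies above equality, at 0.92 on the log2 scale.

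The 8 higher names were miR-1, miR-499, miR-133a, miR-133b, miR-486, miR-486*, miR-3107 and miR-149. A star marks the arm of a hairpin taken as the less abundant one in the older naming. All but miR-149 were highest in heart among the 14 libraries, which makes 7 names at 100 RPM or more (6.09%). Of these, miR-499, miR-133a and miR-133b were at least 4-fold above the highest other library (2.61%). Both counts were the same without the libraries labelled colon and uterus, and with miR-143, miR-378 and miR-1 left out of the totals they were 28 (17.5%) and 8 (5%). Between 10 and 100 RPM, heart was also highest for miR-208a-3p, miR-208b, miR-181a-2* and miR-1943. The last pair was named after the values were seen, and miR-1943 stood at 19.6 RPM in heart and 19.5 RPM in lung, which counting error does not separate. Of the 11 names highest in heart at 10 RPM or more, 6 belong to the striated muscle list.

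miR-1, which restrains growth and conduction genes in heart muscle, had 2208222 reads in heart. Among the others it stood at 41.8 RPM in liver (lowest), 3691 RPM at the median and 362475 RPM in oesophagus (highest), with stomach next at 14035 RPM. Heart and oesophagus, whose wall holds striated muscle in mice, thus stood far apart from the rest. The level in heart was 109.7-fold above the median on the RPM + 1 scale and 1.12-fold (1.12–1.12) above oesophagus. Relative to the shift of the library, miR-1 stood 8.20 (7.56 to 8.59) above on the log2 scale. Ratios to a single library move with the total, and with miR-143, miR-378 and miR-1 left out those to oesophagus were higher, for example 3.16 for miR-1 with 1 RPM added to both levels.

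miR-133a, which is made with miR-1 and acts on smooth muscle genes and growth in heart muscle, stood at 1946 RPM (1910–1984) in heart. The others ran from no read in liver through a median of 20.5 RPM to 305 RPM in oesophagus, with the library labelled colon at 243 RPM from 21 reads. Heart was 6.37-fold (6.01–6.76) above oesophagus and did not overlap any other library. miR-133b, its near-identical relative, stood at 147 RPM (137–158) in heart, 31.6 RPM in oesophagus, 1.85 RPM at the median and had no read in liver and spleen. That is 4.66-fold (3.86–5.66) above oesophagus. The relative values were 7.92 (7.49 to 8.13) for miR-133a and 7.12 (6.58 to 7.26) for miR-133b.

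The myosin intron miRNAs had the fewest reads outside heart among the 7 muscle names. miR-499, which is known to act with miR-208a on slow-fibre myosin genes, had 707 reads or 130 RPM (120.3–139.6) in heart. No other library had more than 5 reads, 5 had none, and the highest level was 3.35 RPM in pancreas from 2 reads, a ratio of 38.7 (10.7–320.4). In oesophagus it had 0 reads, so heart was at least 175-fold higher on a floor of 3 reads. miR-208a-3p, which takes part in the stress response of heart muscle, had 211 reads or 38.7 RPM (33.7–44.3) in heart. It had 4 reads in lung (1.73 RPM), 1 in oesophagus, 1 in pancreas and none in the other 10 libraries, and the ratio to lung was 22.3 (8.60–82.8). miR-208b, the relative made from the beta myosin gene, had 63 reads or 11.6 RPM (8.88–14.8) in heart and 10 reads or 4.33 RPM in lung, a ratio of 2.67 (1.36–5.83). Lung was the only other library with more than 4 reads of a miR-208 name.

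The other arms of these hairpins were scarce and pointed to the same libraries. miR-208a-5p had 54 reads or 9.91 RPM in heart, 2 reads in lung and none in the other 12 libraries. miR-499* had 9 reads or 1.65 RPM in heart and none in any other library, where a count of 0 allows 0.461 RPM (kidney) to 34.7 RPM (the library labelled colon). miR-133a* stood at 77.6 RPM in heart and 148 RPM in oesophagus, a ratio of 0.53 (0.46–0.60) with the total used here. Its direction turned with the total, since it was highest in heart with median-of-ratios factors and 1.48-fold above oesophagus with miR-143, miR-378 and miR-1 left out.

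miR-206, the skeletal muscle relative of miR-1, had a level nearer to the median of the other libraries than the other 6 muscle names. It had 180 reads or 33.0 RPM (28.4–38.2) in heart, close to the median of 28.6 RPM, and heart was 6th of 14. Relative to the shift it stood 1.62 (0.34 to 1.62) above, and with miR-143, miR-378 and miR-1 left out it was 4.96-fold above the median and so called higher. Oesophagus stood at 55270 RPM and cerebellum at 7482 RPM. Over the 7 striated muscle names, 4 were higher and none lower, against 6.96% and 32.2% of the 115 names at 100 RPM or more. All 7 lay above the median of the others, while 80.5% of the 236 names at 10 RPM or more lay below it. The median log2 ratio was 5.70 over the 7 names and -1.42 over the 236. The 7 names summed to 407445 RPM in heart and 418082 RPM in oesophagus, and 63.8 RPM in liver, the lowest. The 4 names taken as markers of heart, miR-1, miR-133a, miR-499 and miR-208a-3p, were each highest in the library labelled heart.

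**Figure D2:**
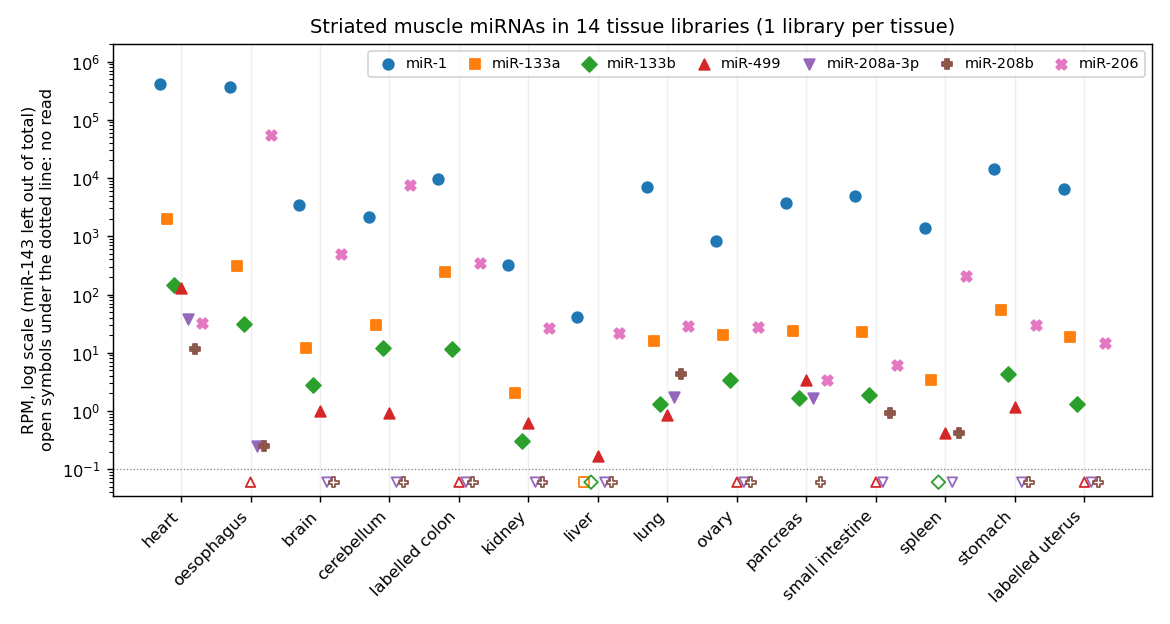
Level of 7 striated muscle miRNAs in each of the 14 libraries, in RPM on a log scale with miR-143 left out of the total; each symbol is 1 library's value, and open symbols under the dotted line had no read. Heart and oesophagus share the top level of miR-1 (405138 and 362475 RPM), while miR-499 stands at 130 RPM in heart against at most 3.35 RPM elsewhere and miR-206 at 33.0 RPM against 55270 RPM in oesophagus.

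Ratios between names within a library do not depend on the total. In heart there were 12268 (10601–14278) reads of miR-1 per read of miR-206. The other libraries with at least 3 reads of both ran from 0.29 in cerebellum to 797 in small intestine, with 6.56 in oesophagus, and pancreas had only 2 miR-206 reads. miR-206 to miR-133b, which are neighbours in the genome, stood at 0.22 (0.19–0.26) in heart and at 3.38 in small intestine to 1748 in oesophagus among 7 other libraries. So heart was the only one of these libraries with more miR-133b than miR-206. miR-1 per miR-133a was 208 (204–212) in heart, inside the range of 39.7 in ovary to 1187 in oesophagus. miR-133a made 93.0% of the miR-133 reads in heart and 90.6% in oesophagus, and miR-208a-3p made 77.0% (71.6–81.9%) of 274 miR-208 reads in heart. In lung the same pair had 4 reads of miR-208a-3p to 10 of miR-208b, a ratio of 0.40 (0.09–1.39) against 3.35 (2.52–4.51) in heart.

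miR-378 was abundant in heart, and its rank depended on the total. With the total used here, its level of 453310 RPM ranked behind stomach with 495327 RPM and the library labelled uterus with 483700 RPM, and the others had a median of 211635 RPM and a lowest value of 25026 RPM in brain. miR-378*, its other arm, ranked 3rd in heart too, at 46.6 RPM against 64.9 RPM in stomach and 57.5 RPM in oesophagus. Both arms were highest in heart with median-of-ratios factors, and with miR-143, miR-378 and miR-1 left out miR-378 was 3.17-fold above stomach and miR-378* 2.28-fold above oesophagus. miR-378 was highest with miR-143 included too. Per read of miR-378 there were 0.89 reads of miR-1 in heart, 1.53 in oesophagus and at most 0.14 in the others. Relative to the shift, miR-378 stood 2.52 (2.24 to 2.65) above and miR-378* 2.68 (2.68 to 2.99).

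miR-486, which is known from red blood cells and from muscle, stood at 1072 RPM (1045–1100.0) in heart. Lung came next with 935 RPM, spleen had 468 RPM, the median was 65.5 RPM and pancreas was lowest with 6.70 RPM. The ratio to lung was 1.15 (1.09–1.20), or 7.65 with miR-143, miR-378 and miR-1 left out, and the level was 16.2-fold above the median on the RPM + 1 scale. miR-3107 followed the same libraries, with 1026 RPM in heart and 831 RPM in lung. Its gene is annotated on the opposite strand over that of miR-486, and the reads of miR-3107 per read of miR-486 lay between 0.67 and 1.33 in all 14 libraries and at 0.96 (0.92–0.99) in heart. The same reads may have been counted for both names, so they are not independent. miR-486* stood at 120 RPM in heart and 49.9 RPM in cerebellum, a ratio of 2.41 (1.83–3.25).

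Other red cell miRNAs did not share this order of tissues. miR-451, which is made in developing red cells, stood at 148 RPM in heart, 6th of 14, with 1365 RPM in spleen, 1131 RPM in lung and a median of 90.3 RPM. miR-144, from the same transcript, stood at 21.8 RPM, 7th of 14. Heart had 0.14 (0.13–0.15) reads of miR-451 per read of miR-486, while 10 other libraries had 0.45 to 4.63 and cerebellum had 0.05. The whole red blood cell list of 3 names summed to 1242 RPM in heart, behind spleen (2433 RPM) and lung. The part of blood in the miR-486 level was not tested.

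miR-149, encoded in an intron of the glypican gene Gpc1, completed the higher names at 214 RPM (202–227). It was higher in cerebellum (429 RPM), oesophagus (428 RPM) and brain (388 RPM), and had a median of 32.3 RPM and no read in ovary. This order turned with the total, since miR-149 was highest in heart with median-of-ratios factors and 1.41-fold above oesophagus with miR-143, miR-378 and miR-1 left out. It stood 6.47-fold above the median on the RPM + 1 scale, and 4.11 (3.81 to 4.17) above the shift.

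Below the rule of size, several lists stood above the shift of the library under all 5 ways of scaling. The miR-30 family, which is abundant in heart muscle cells and acts on autophagy and matrix genes, summed to 28526 RPM over 7 names, 4th of 14 after lung with 111533 RPM and 2 others. miR-30a stood at 10954 RPM in heart against a median of 5870 RPM, miR-30e at 7302 RPM against 4824 RPM and miR-30d at 5919 RPM against 2783 RPM. Of the 7 names 5 lay above the median and none was higher by the rule, against 21 and 8 of the 115 names at 100 RPM or more. The median over the list was 2.02 (1.71 to 2.09) above the shift. miR-30e* and miR-30a*, the other arms, stood at 1999 RPM (3rd of 14) and 1729 RPM (5th). Within the family the make-up was usual, since miR-30a held 44.2% in heart and 29.3% (spleen) to 64.9% (liver) elsewhere. miR-22, which is abundant in heart muscle and acts on its growth, stood at 1185 RPM, 4th of 14, with a median of 788 RPM, and 2.01 (1.84 to 2.31) above the shift. With miR-143, miR-378 and miR-1 left out, miR-22, miR-30d, miR-30e* and miR-30a* were highest in heart.

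Endothelial miRNAs lay in the middle of the range. miR-126-3p, the main miRNA of endothelium, stood at 5662 RPM in heart, 9th of 14, against a median of 8336 RPM and 71736 RPM in lung. Its other arm miR-126-5p stood at 1657 RPM, 6th of 14, against a median of 848 RPM. So the arms differed in rank, and heart had 3.42 (3.34–3.50) reads of the 3p arm per read of the 5p arm. Ratios elsewhere ran from 1.86 in cerebellum to 11.4 in oesophagus, with 3.64 in pancreas and 3.94 in the library labelled colon, both of wide interval. The median of the endothelium list was above the shift by 0.67 (0.19 to 0.67), and so were those of the miR-23, miR-24 and miR-27 list by 0.93 (0.56 to 0.93) and the miR-99, miR-100 and miR-125 list by 1.01 (0.39 to 1.01). Within these lists miR-222 (-0.43), miR-23b (-0.12) and miR-125a-5p (-1.08) stood below the shift under all 5 ways of scaling, and miR-221 changed side. The other names stood above it under all 5.

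**Figure D3:**
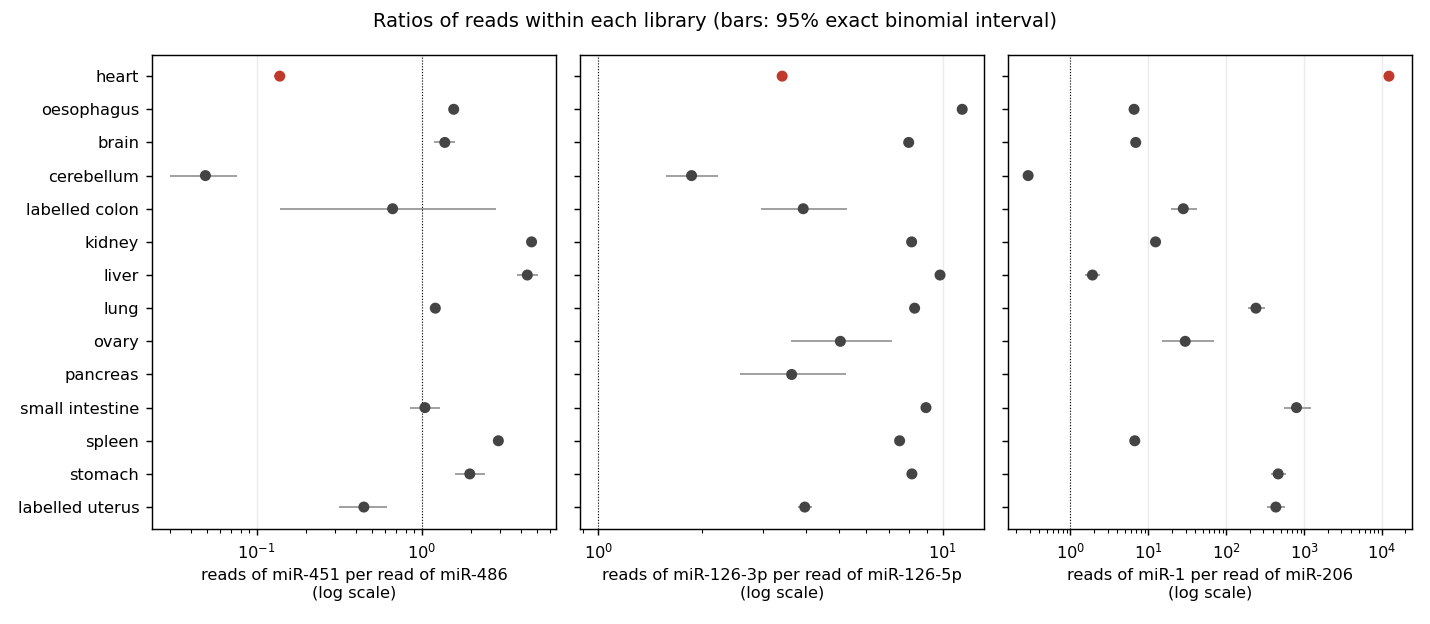
Reads of one name per read of another within each library, on log scales, for miR-451 to miR-486, miR-126-3p to miR-126-5p and miR-1 to miR-206; bars are 95% exact binomial intervals, and libraries with under 3 reads of a name are left out. Heart, in red, stands at 0.14 in the first panel with only cerebellum lower, at 3.42 in the second with only cerebellum lower, and at 12268 in the third above every other library.

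Markers of other cells of heart lay on both sides of the shift. The mesenchymal list of miR-199, miR-214 and their arms had 6 of 6 names below the median, against 80.5% of the 236 names at 10 RPM or more. With miR-143, miR-378 and miR-1 left out 5 of the 6 lay above it, while 24.5% of 310 names at 10 RPM or more lay below it. The list summed to 283 RPM against a median of 971 RPM, with a median of -0.54 (-0.78 to -0.31) relative to the shift. miR-199a-3p, for example, stood at 141 RPM against a median of 554 RPM, and at -0.54 relative to the shift. miR-199a-5p (0.38), miR-199b* (1.23) and miR-214* (1.17) stood above the shift under all 5 ways of scaling. The smooth muscle list had 4 of 4 names below the median, and 4 of 4 above it with the same 3 names left out. The shares of all names below it were again 80.5% and 24.5%. It lay on either side of the shift with the scaling (-0.24 to 0.49). miR-145 stood at 130 RPM against a median of 316 RPM. Relative to the shift miR-145 (0.13 to 0.90) and miR-143* (0.08 to 1.22) stood above under all 5 ways of scaling. miR-145* stood below it under all 5, and miR-143 changed side. miR-29a, which acts on collagen genes and is known from heart fibroblasts, stood at 566 RPM and lowest of 14 against a median of 2456 RPM, with -0.70 (-0.75 to -0.35) relative to the shift. Its relative miR-29c made 7.40% (6.55–8.32%) of the miR-29 reads, second to cerebellum with 7.45%. miR-29c stood above the shift under all 5 ways of scaling (0.02 to 0.88), while miR-29b stood below it under all 5. Of the 5 white blood cell names 4 lay below the median, which is near the 80.5% over the 236 names. An example was miR-142-3p at 45.7 RPM against 386 RPM. Only miR-155 lay above the median, at 27.3 RPM, 4th of 14, against 11.6 RPM. Relative to the shift that list changed side with the scaling (-0.73 to 0.22). Within it miR-150 (0.70 to 1.03) and miR-155 stood above the shift under all 5 ways of scaling. miR-142-3p and miR-142-5p stood below it under all 5, and miR-223 changed side.

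The 37 lower names differed in how far they stood under the shift. miR-141, of the miR-200 family that marks epithelial cells, had 30 reads or 5.50 RPM in heart, against 2.77 RPM in cerebellum (lowest), 277 RPM at the median and 3988 RPM in small intestine. It was 42.8-fold below the median on the RPM + 1 scale and stood at -4.00 (-5.14 to -4.00) relative to the shift. miR-182, of a cluster known from sensory and secretory epithelia, had 157 reads or 28.8 RPM, the lowest of 14, against a median of 1068 RPM and 5315 RPM in the library labelled uterus. miR-141 and miR-182 were the 2 names still called lower with miR-143, miR-378 and miR-1 left out, at 9.61-fold and 8.78-fold below the median. Of the 5 miR-200 family names all lay below the median, against 80.5% of the 236 names at 10 RPM or more. By the rule 4 were lower, against 32.2% of the 115 names at 100 RPM or more, and the list's median was -2.42 (-3.75 to -2.42) relative to the shift. In sum they reached 87.3 RPM in heart and 41.5 RPM in cerebellum, against a median of 1479 RPM.

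miR-183, of the same cluster as miR-182, stood at 14.9 RPM in heart, the lowest of 14, against a median of 278 RPM. miR-203, a miRNA of squamous epithelium, stood at 78.9 RPM against 750 RPM and miR-205, also squamous, at 3.30 RPM against 1.15 RPM, so the list was mixed. miR-34c, known from multiciliated cells, stood at 28.6 RPM against 381 RPM, with 14335 RPM in lung. miR-21, a miRNA of many tissues that increases in fibrosis, had 2725 RPM in heart against 29436 RPM at the median. Brain (2686 RPM), cerebellum (1740 RPM) and pancreas (394 RPM) stood at or below heart for miR-21, and its value relative to the shift was -2.01 (-2.38 to -1.66). miR-16, of the cell cycle miR-15 family, stood at 131 RPM against 1147 RPM or -1.70 (-1.78 to -1.22) relative to the shift. miR-10a, from a Hox cluster, stood at 423 RPM against 4056 RPM or -1.84 (-2.33 to -1.82).

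The let-7 family, which accumulates as cells differentiate, was low in RPM in heart. All 9 names lay below the median, against 80.5% of the 236 names at 10 RPM or more. By the rule 4 were lower, against 32.2% of the 115 names at 100 RPM or more. The let-7 sum of 67479 RPM was the lowest of the 14, against 107421 RPM in the library labelled uterus to 872786 RPM in ovary. let-7f stood at 14499 RPM in heart, against 16899 RPM in cerebellum, 74539 RPM at the median and 358669 RPM in spleen. The list's median relative to the shift was -0.35 (-0.77 to -0.35), while the 4 lower names stood at -0.82 (let-7d), -0.95 (let-7e), -0.94 (let-7f) and -1.03 (let-7g), below it under all 5 ways of scaling. let-7c (0.15) and let-7i (0.39) stood above the shift with the total used here and changed side with the scaling. With miR-143, miR-378 and miR-1 left out, 6 of the 9 names lay above the median of the others. Under that total 24.5% of 310 names at 10 RPM or more lay below the median. Among the 6, let-7g had a log2 ratio of 0.14, while with the total used here it was 5.44-fold below. So the low rank of this family in heart holds for shares of the library.

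The make-up of the family does not depend on totals. let-7c held 39.1% (38.9–39.2%) of the let-7a to let-7i reads in heart, second to cerebellum with 57.7%, against a median of 27.3%. let-7f held 21.5% (21.4–21.7%), with only cerebellum lower at 4.84%, against a median of 35.6%. let-7a held 19.6% and let-7b 11.7%, 5th and 3rd of 14. In the miR-15 family, miR-322 held 39.7% (38.0–41.5%) of heart reads, second to ovary with 52.2% and against a median of 10.1%, while miR-16 held 23.1% against a median of 40.9%. miR-322, known from muscle differentiation, stood at 226 RPM itself, 7th of 14.

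**Figure D4:**
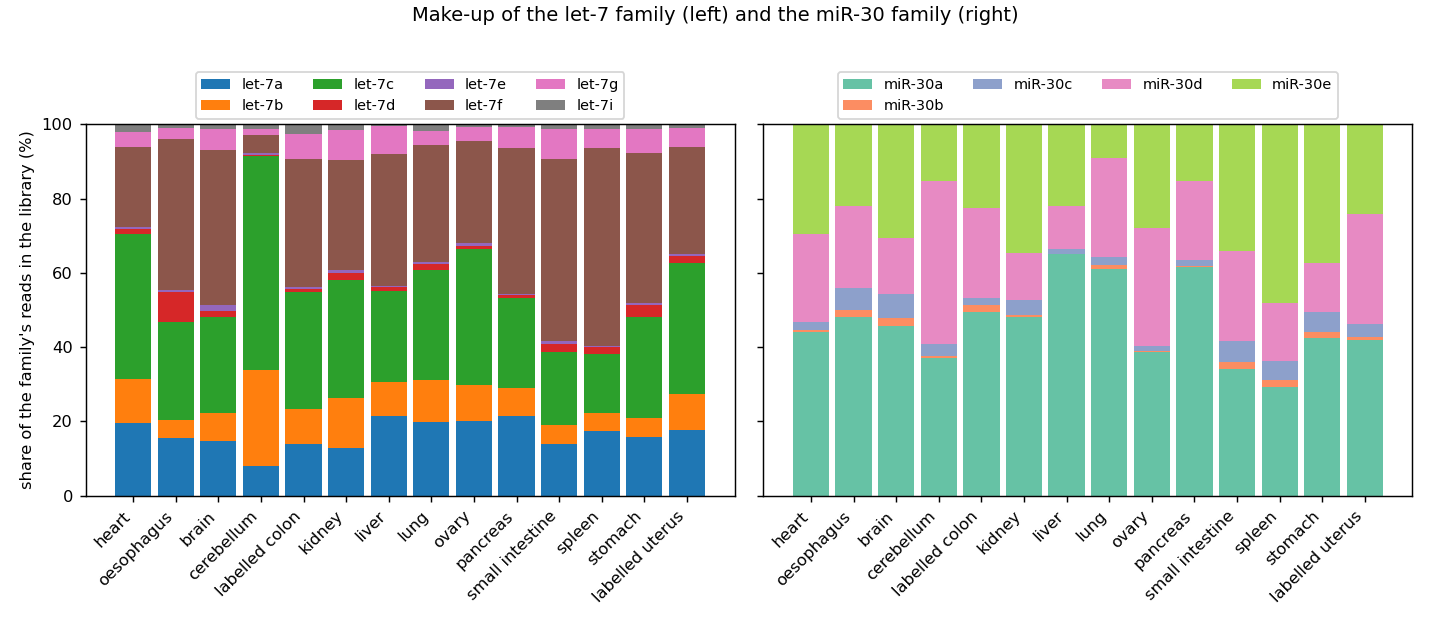
Share of each member in the reads of the let-7 family (left) and of the miR-30 family (right) in each library, in percent; each bar is 1 library and adds to 100. In heart let-7c takes 39.1% and let-7f 21.5%, with cerebellum alone higher for let-7c and alone lower for let-7f, while miR-30a takes 44.2%, inside the range of the other tissues.

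Arms of a hairpin were compared for 40 hairpins. In 38 of them the ratio in heart lay inside the range of the other libraries, in none above it, and in 2 below it. miR-23b had 218 (93.0–672) reads per read of miR-23b* in heart, from 5 star reads, against 286 to 1586 in 6 other libraries. miR-186, named after its value was seen, had 38.3 (25.3–60.7) reads per read of miR-186*, against 38.4 in lung as the lowest of 10. Neither interval excludes the lowest ratio of the others. miR-423-5p, whose arms vary widely between tissues, had 7.50 (5.98–9.51) reads per read of miR-423-3p in heart, inside 0.40 (spleen) to 18.5 (pancreas).

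miRNAs of distant organs held small shares of the heart library. miR-122, the hepatocyte miRNA, stood at 70.5 RPM (63.6–77.9) in heart, 9th of 14 and under the median of 94.3 RPM, with 466024 RPM in liver and no heart read of miR-122*. Relative to the shift, miR-122 stood above it under all 5 ways of scaling, by at least 0.66. The pancreas list of 4 names summed to 9.72 RPM in heart, against 4026 RPM in pancreas. All 10 neural names lay below the median, against 80.5% of the 236 names at 10 RPM or more. With miR-143, miR-378 and miR-1 left out 4 of the 10 lay above it, while 24.5% of 310 names at 10 RPM or more lay below it. The neural list summed to 71.7 RPM, with miR-124 at 2.94 RPM, the lowest of 14. Of 22 names of the imprinted Dlk1-Dio3 cluster none lay above the median and 20 below, while 13 lay above it with miR-143, miR-378 and miR-1 left out. The shares of all names at 10 RPM or more below it were again 80.5% and 24.5%. With the total used here 8 of the 22 reached 10 RPM in heart or in the median. The list's median over such names was -0.31 (-0.73 to -0.17) relative to the shift. miR-134, miR-299 and miR-433 stood above the shift under all 5 ways of scaling. miR-127, miR-136, miR-376a, miR-382, miR-410, miR-411 and miR-434-3p stood below it, and the others changed side. miR-215 stood apart, at 823 RPM in heart and 7th of 14, while miR-192 from the same family was 13th at 481 RPM against a median of 1608 RPM. miR-215 lay 2.03 (0.80 to 2.38) above the shift and miR-192 at -0.32 (-1.26 to -0.32).

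**Figure D5:**
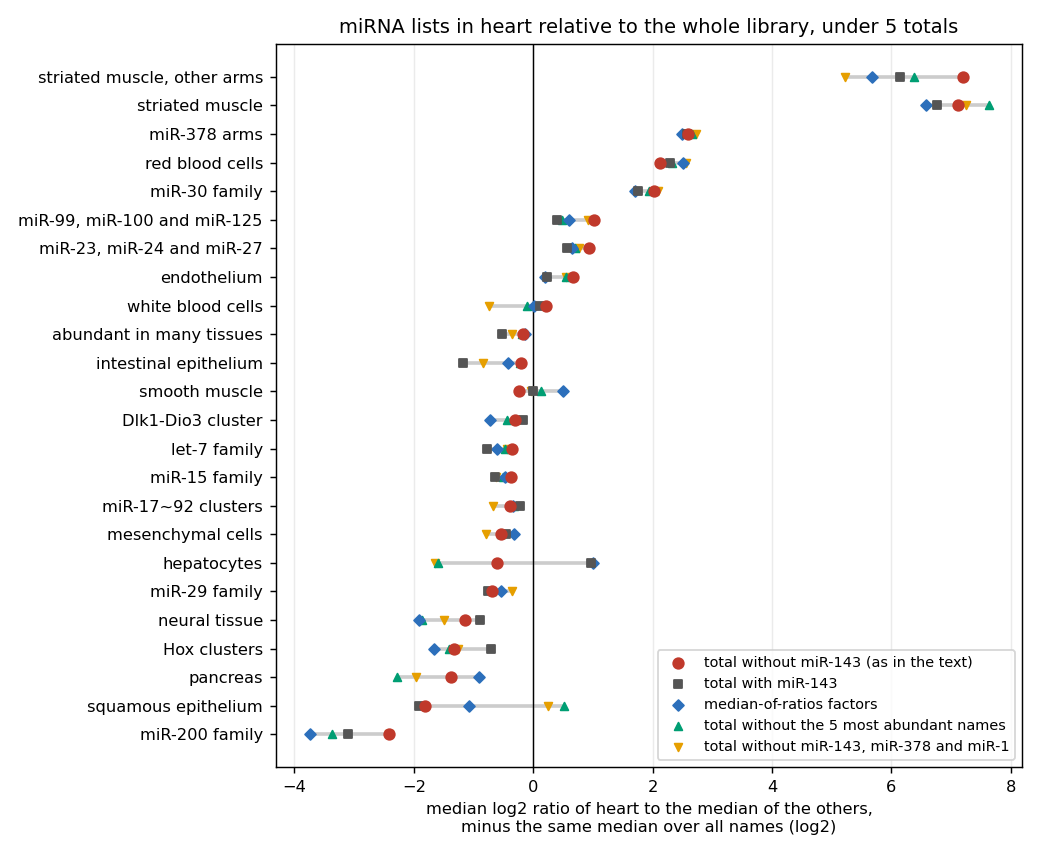
Median log2 ratio of heart to the median of the other libraries for each of 24 miRNA lists, minus the same median over all names, under 5 totals; each symbol is 1 total and the grey bar spans them. The striated muscle names (6.58 to 7.63) and their other arms (1 to 3 names) stand highest, the red blood cell (2.13 to 2.56) and miR-30 lists (1.71 to 2.09) stand above 0, the miR-200 family stands lowest, and the smooth muscle, white blood cell, squamous and hepatocyte lists change side with the total. Medians take only names at 10 RPM or more in heart or in the median of the others, so the names in a list vary with the total. Of the squamous and hepatocyte names, miR-203 and miR-802 lie below 0 under all 5 totals and miR-205 and miR-122 above.

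The libraries most like heart depended on the leading pair of names. Counting for each name the smaller of its shares in 2 libraries, heart shared 71.3% of its reads with oesophagus, 59.8% with stomach, 57.5% with the library labelled uterus and 14.6% with pancreas, the least. Without miR-1 and miR-378 the order changed to lung with 77.8%, kidney with 72.6% and the library labelled colon with 64.1%, and oesophagus followed lower down with 53.2%.

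Against oesophagus, the other library rich in miR-1, 6 of 131 names were higher in heart (4.58%) and 72 lower (55%), a split that was 24 to 19 with median-of-ratios factors and 29 to 41 with miR-143, miR-378 and miR-1 left out. The 6 were miR-499, miR-30e (8.11-fold, 7.84–8.40), miR-30d (6.48-fold, 6.26–6.70), miR-133a (6.37-fold), miR-30a (5.53-fold, 5.41–5.66) and miR-133b (4.66-fold). With the total used here, the names higher in heart thus came from the striated muscle list and the miR-30 family alone. The largest fold the other way was that of miR-206, 1674-fold (1446–1948) higher in oesophagus among names with at least 3 heart reads. miR-205 and miR-203, of squamous epithelium, were 355-fold (224–599) and 321-fold (292–354) higher in oesophagus, and miR-183 274-fold (220.5–345).

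Against lung, 7 of 142 names were higher in heart (4.93%) and 107 lower (75.4%), or 18 to 12 with median-of-ratios factors and 29 to 18 with the 3 names left out. The 7 were miR-499 (150-fold, 41.3–1239, from 2 lung reads), miR-133a (121-fold, 88.0–173), miR-133b (113-fold, 38.7–551, from 3 lung reads), miR-1 (58.9-fold, 58.0–59.8), miR-378 (9.53-fold), miR-149 (7.17-fold) and miR-486* (7.12-fold). Among the names higher in lung were miR-34c (501-fold, 428–590) and miR-141 (186-fold, 130–277). Against kidney, 9 of 129 names were higher in heart (6.98%) and 76 lower (58.9%), or 18 to 15 and 30 to 27. miR-1 was 1237-fold (1186–1292) and miR-133a 974-fold (569–1829) higher in heart, and miR-215 was 4.41-fold (4.14–4.71) higher. Among the names higher in kidney were miR-196b (1734-fold, 1134–2802) and miR-10a (77.3-fold, 74.2–80.6) of Hox clusters and miR-429 (919-fold, 526–1779) and miR-200a (428-fold, 308–615) of the miR-200 family.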

How the data were processed

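The authors deposited raw read counts per mature miRNA name, whole numbers with no scaling, for 14 tissue libraries. Per the labels' protocols RNA was extracted with Trizol, pooled and made into libraries by Illumina's standard procedure. Trimming, aligner, miRNA release and genome build were not given in the sources used here. Here counts were divided by the library's total without miR-143 and multiplied by 1000000 (RPM), with Python 3.11.15, pandas 2.3.3, numpy 2.4.6, scipy 1.17.1 and matplotlib 3.10.9. Calls used a fold of 4, a minimum level of 100 RPM and a pseudocount of 1 RPM, since 1 library per tissue allows no test. Intervals are exact (Poisson for RPM, Clopper-Pearson for shares, conditional binomial for ratios). The 24 lists hold 142 names, of which 141 matched.

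Alternatives were other totals, median-of-ratios factors, a pseudocount of 10 RPM, a minimum of 50 RPM, folds of 2 and 8, thinning to equal depth and leaving out libraries, of which leaving out those labelled colon and uterus was added after the data were seen. The rule for names in the text took all list members, the most abundant and most extreme names of heart and the hairpins of most unusual arm ratio, and names outside it are marked. The heart library, lists and rules were chosen with earlier results of these data known. The calling rule was checked on simulated counts. In these all libraries shared the same profile apart from names changed in heart, and heart was scaled by its unchanged names. The check therefore could not show how calls depend on the total or on variation between tissues. Sequences come from RefSeq (GRCm38.p6), overlaps from GENCODE M21.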

Additional observations from a re-analysis of the deposited data

How the results depend on the processing

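No paired analysis was possible because each tissue has 1 library and the columns carry no replicate numbers. Of 96 counts recomputed, 71 stayed within 1.5 times, and totals moved most of the rest. With median-of-ratios factors, 17 names were higher in heart, 8 lower, 14 highest and 6 enriched (at least 4-fold above the highest other library), and 43 differed from oesophagus and 30 from lung, against 78 and 114. Without the 5 most abundant names of each library there were 31 higher, 10 lower, 25 highest and 8 enriched, 307 names reached 10 RPM, and 51 differed from lung. Without miR-143, miR-378 and miR-1 there were 48 higher, 2 lower, 28 highest and 8 enriched, 295 reached 10 RPM, and 47 differed from lung. In the last 2 settings 6 of the 7 striated muscle names were higher, against 4. With miR-143 included 12 were lower and 52 differed from lung. A 2-fold rule gave 74 lower, and an 8-fold rule 15 lower, 1 enriched, and 40 and 63 differing from oesophagus and lung. Without oesophagus 4 were enriched, miR-1 joining the 3.

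The 8 higher names were all called with median-of-ratios factors and in both settings that left abundant names out, and 7 of them with miR-143 included and after thinning, where miR-486* was lost. Of the 40 called names within the naming rule, 6 changed side of the median under some total. Without miR-143, miR-378 and miR-1 the log2 ratios were 0.14 for let-7g, 0.22 for miR-10b, 0.11 for miR-145*, 0.56 for miR-29a, 0.32 for miR-9 and 0.13 for miR-93, and miR-10b stood at 0.44 with miR-143 included. The cause was not tested. Depth limits names near 10 RPM: 1 read is worth 11.6 RPM in the library labelled colon and 0.183 RPM in heart.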
